A study of Mus musculus with 10 samples.

Results

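The replication-dependent histone genes are the multicopy genes that supply histone protein while DNA is copied. They were taken from the count table by symbol, as H1f1 to H1f5 and as every gene whose symbol joins H2ac, H2bc, H3c or H4c to a number, with pseudogenes left out. This gave 63 of the 46316 genes in the table. Of these, 5 encode the linker histone H1, 17 encode H2A, 17 encode H2B, 12 encode H3 and 12 encode H4.

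RNA came from reporter-positive B220+ B cells sorted from spleens of C57BL/6 mice, in 3 groups of libraries that each come from 1 mouse. The pBIC10 group (n = 3, 2 female and 1 male) holds lymphoma cells with floxed p53F/F and Blimp1F/F genes, with the IKK2castopF/stopF allele, with Cg1Cre/+ and, in addition, with IL-10F/F. The pBIC group (n = 3, all female) has the same alleles without IL-10F/F. The YC group (n = 4, 3 female and 1 male) carries YFPstopF/+ and the same Cg1Cre/+, and by the study's design it holds germinal centre B cells without lymphoma, sorted 10 days after a second immunisation with sheep red blood cells, the first having been given 20 days before. Cg1Cre makes Cre from the immunoglobulin Cγ1 locus, so that floxed alleles are recombined in B cells that have been activated for class switching, which includes germinal centre cells. It removes p53 and Blimp1 and turns on a constantly active IKK2 kinase in both lymphoma groups, and removes IL-10 in pBIC10 alone. Lymphoma mice were killed when moribund, and for YC some of the labels repeat that wording and name the cells as lymphoma.

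The libraries held 17100995 to 18578955 counts in pBIC10, 17797344 to 19134178 in pBIC and 12590117 to 14330172 in YC. Levels are CPM, the counts of a gene scaled to library size by TMM, and a count of 0 in 1 library allowed up to 0.154 to 0.246 CPM, set by 3 counts and covering counting error only. Trp53, the gene of p53, lay at 47.4, 49.7 and 36.6 CPM in pBIC10, 23.1, 18.3 and 53.2 CPM in pBIC, and 197, 193, 198 and 176 CPM in YC. Prdm1, the gene of Blimp1, lay at 0.648, 0.351 and 1.59 CPM in pBIC10, 5.62, 16.3 and 8.02 CPM in pBIC, and 30.1, 39.5, 16.7 and 28.2 CPM in YC. Il10 lay at 2.71, 1.99 and 4.76 CPM in pBIC10, 19.4, 6.83 and 8.77 CPM in pBIC, and 4.22, 7.44, 7.13 and 9.95 CPM in YC. The 8 B cell markers examined summed to 2643 to 4591 CPM in pBIC10, 2065 to 3655 in pBIC and 8278 to 10489 in YC. The 8 germinal centre markers summed to 41.2 to 87.3, 62.1 to 79.7 and 788 to 1344 CPM in the same 3 groups. The pBIC and YC libraries are reused by the authors from earlier work, whereas those of pBIC10 are their own. A batch of libraries and the pBIC10 genotype therefore cannot be told apart in its comparisons with pBIC and YC. The p-values measure the spread between mice of a group.

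Histone genes of this kind are transcribed in S phase, when the factor NPAT, itself switched on by cyclin E with CDK2, activates the clusters. Their messages carry no introns and, alone among the messages of animal cells, usually end in a conserved stem-loop and not in a poly(A) tail. The stem-loop is bound by SLBP, the U7 particle directs the cut just after it, and the messages are destroyed when DNA synthesis ends. A part of these genes can also yield transcripts with a poly(A) tail. The libraries were made by enrichment with oligo(dT), which captures tails, so the counts describe the histone transcripts that this enrichment carried into the library and not the whole histone message of the cells. Histone variants such as H3.3 and H2A.Z are made throughout the cell cycle from genes with ordinary tails.

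The stem-loop is the sequence that the processing of these messages turns on, and it was looked for in the GENCODE vM21 transcripts of the members (build GRCm38), to which 62 of the 63 matched and H2bc24 did not. The consensus of the histone stem-loop, 16 letters with GG at one foot, CC at the other and the 2 arms paired, was found in 40 members (64.5%) and in 10 of 55388 other genes (0.0181%). Below, 1 or 2 members of each type show forms that were found, with the 16 letters in capitals and up to 5 bases on each side.
H1f2: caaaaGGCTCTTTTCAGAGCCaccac
H2ac23: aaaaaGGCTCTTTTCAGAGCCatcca
H2bc6: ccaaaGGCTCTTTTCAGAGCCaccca
H2bc14: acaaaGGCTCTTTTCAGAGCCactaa
H3c3: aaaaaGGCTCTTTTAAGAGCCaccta
H4c17: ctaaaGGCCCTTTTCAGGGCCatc
H4c9: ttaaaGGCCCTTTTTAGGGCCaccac
The form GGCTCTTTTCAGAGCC, shown by H1f2, H2ac23, H2bc6 and H2bc14, stood in 24 members of the types H1, H2A, H2B and H3. H3c3 shows a form with A in the loop, found in 5 members. The 6 copies of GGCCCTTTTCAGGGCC, as in H4c17, were all in H4 genes, and H4c9 shows the form with T in the loop, found in 2 H4 genes. For 9 members the annotated transcript went on past the stem-loop and held AATAAA, the letters of the poly(A) signal, anywhere after it. They were H1f2, H1f3, H2ac6, H2ac8, H2bc6, H2bc9, H3c14, H4c11 and H4c14. The stretch after the stem-loop was as long as 4884 bases in H1f3, and the distance of the letters to the transcript end was not examined. H2bc4 and H2bc21 were among the members with no match to the stem-loop in their annotated transcripts. Where a transcript model stops before its true end, or a stem-loop departs from the letters searched, no match says only that these letters are not in that model. The longest models of H2bc4 and H2bc21 held 1156 and 2620 nt.

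Histone genes were low in all 3 groups and lowest in the lymphomas. Together the 63 genes took 0.0293 to 0.0380% of all counts in pBIC10, 0.0184 to 0.0259% in pBIC and 0.0832 to 0.157% in YC. They summed to 296, 334 and 362 CPM in the pBIC10 libraries, to 176, 273 and 257 CPM in the pBIC libraries and to 829, 1617, 894 and 1191 CPM in the YC libraries. Every lymphoma library lay below every YC library, and the sums of pBIC10 lay above those of pBIC without overlap. In these sums, which are not per length, H2A genes made up 71.3% of the sum in pBIC10, 80.5% in pBIC and 66.8% in YC (mean over libraries; SD 6.64, 11.6 and 9.93). H3 genes, by contrast, made up 1.94%, 2.85% and 7.79% in the same 3 groups (SD 0.563, 1.45 and 2.74). H2B sums lay at 51.9, 64.8 and 39.3 CPM in pBIC10, 7.77, 11.4 and 31.0 CPM in pBIC, and 106, 222, 63.3 and 117 CPM in YC, and here alone among the 5 types did pBIC10 overlap YC. H3 sums lay at 7.67, 5.45 and 5.79 CPM in pBIC10, 2.25, 8.53 and 10.7 CPM in pBIC, and 83.9, 164, 44.5 and 70.4 CPM in YC, far apart between lymphoma and YC. Fewer cells that express a gene and less RNA of it in each cell cannot be told apart in these bulk libraries.

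**Figure D1:**
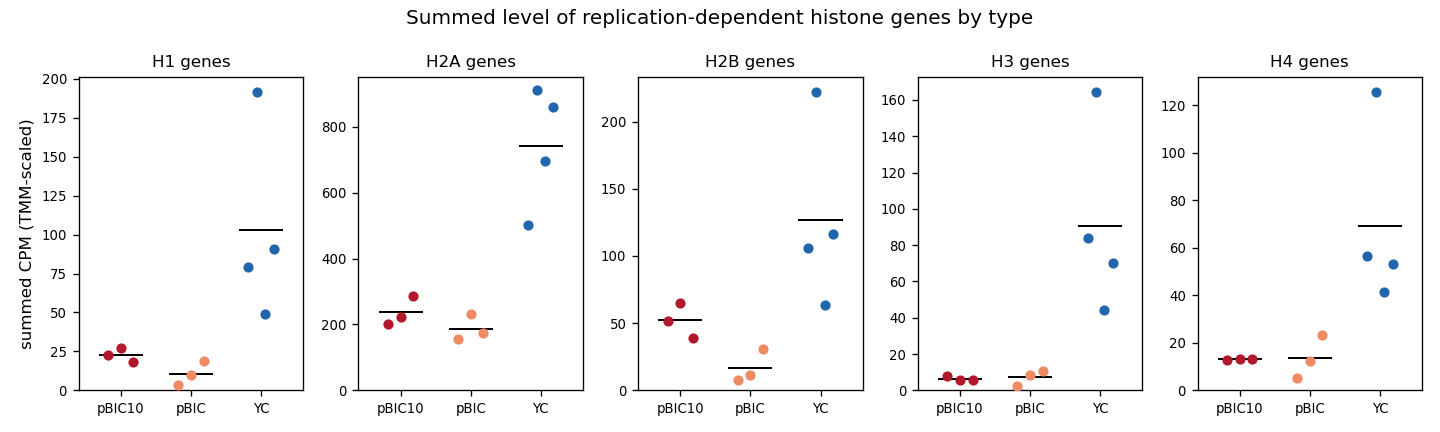
Summed CPM of the members of each histone type (vertical axes, linear from 0) in each library of pBIC10, pBIC and YC; points are libraries and lines are group means. In H1, H2A, H3 and H4 every lymphoma library lies below every YC library, in H2B 1 pBIC10 library lies just above the lowest YC library, and YC replicate 2 is the highest library throughout.

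Of the 63 members, 61 had enough counts to be tested, and at a mean under 1 CPM there were 33 of these in pBIC10, 34 in pBIC and 0 in YC. H2ac1 and H2bc1, the remaining members and known as the testis forms of H2A and H2B, reached at most 0.328 CPM and 0.820 CPM in any library. Libraries within a group differed along all types. YC replicate 2 was the highest YC library for 57 of the 61 genes, and YC replicate 3 was the lowest for 41. pBIC replicate 1 was the lowest pBIC library for 54 genes. Reads of 50 bases cannot always be placed among such similar genes, and how reads with several matches were counted is not given in the sources used here. For each gene, the share of 50-base stretches of the annotated transcript that occur in no other gene was taken. Its median was 97.7% in H1, 21.1% in H2A, 52.5% in H2B, 38.0% in H3 and 60.1% in H4. By these medians, values of single H2A and H3 genes are the least certain. The lowest share was 0% in H2A, H2B and H3 and 10.2% in H4, so single H2B and H4 genes can be as uncertain.

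The comparison of pBIC with YC asked how lymphoma cells with IL-10 differ from germinal centre B cells. In pBIC, 59 of the 61 tested histone genes were lower than in YC and 0 were higher, where 27.7% of all tested genes were called lower and 26.4% higher (edgeR, adjusted p under 0.05). The count of higher genes was also 0 at an unadjusted p under 0.05, with DESeq2 and with limma-voom. The median log2 fold change was -3.10, against 0.02 over all genes tested. There was no overlap of libraries in 58 of the 61 genes, all lower in pBIC, where of all tested genes 28% were lower and 26.3% higher without overlap. All 5 H1 genes, all 16 H2A genes, 15 of 16 H2B genes, all 12 H3 genes and 11 of 12 H4 genes were called, with medians of -3.19, -1.99, -3.45, -3.61 and -2.47 in that order. The genes not called were H2bc21 (-0.88 ± 0.37, adjusted p = 0.0608) and H4c9 (-0.79 ± 0.46, adjusted p = 0.161), both with fitted values below 0. Both were called lower without pBIC replicate 3 (-1.38 and -1.52, adjusted p = 0.00721 and 0.0113), and H2bc21 also with DESeq2 (adjusted p = 0.0267) and limma-voom (0.0424). Without pBIC replicate 3 the median over the 61 genes was -3.75, and without any 1 of the other libraries it lay between -3.38 and -2.71. Leaving out that library moved 23 of the 59 called values by more than 1.5-fold, all of them further below 0, the H1 genes H1f2, H1f4 and H1f5 and 12 H2B genes among them. Without YC replicate 2, the values of H1f5, H2bc3, H3c1 and H4c4 moved towards 0 by as much (-2.46, -3.41, -3.03 and -1.63).

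The comparison of pBIC10 with YC, which sets the lymphoma without IL-10 against the same cells, gave 56 of 61 genes lower and 0 higher in pBIC10, where 26.9% of all tested genes were called lower and 24.8% higher. The count of higher genes was 0 at an unadjusted p under 0.05 and with DESeq2 and limma-voom, and 1, H2bc4, in a fit of these 2 groups alone (adjusted p = 0.0302). The median log2 fold change was -2.63, against 0.0099 over all genes. There was no overlap of libraries in 56 genes, all lower in pBIC10, where of all tested genes 31% were lower and 30% higher without overlap. All 5 H1, 16 H2A and 12 H3 genes were called, as were 12 of 16 H2B and 11 of 12 H4 genes, with medians of -3.29, -1.75 and -3.79 for the first 3 types, -2.20 for H2B and -2.62 for H4. The 5 genes not called were H2bc4, H2bc6, H2bc9, H2bc21 and H4c9. With DESeq2, H2bc9 and H4c9 were called lower (adjusted p = 0.0382 and 0.0325), as was H2bc9 without YC replicate 3 (0.0339). Without YC replicate 2, the values of H1f3, H1f5, H2bc3, H3c1 and H4c4 moved towards 0 by more than 1.5-fold (-2.71, -3.83, -4.47, -3.45 and -2.47). Both comparisons share the YC libraries.

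**Figure D2:**
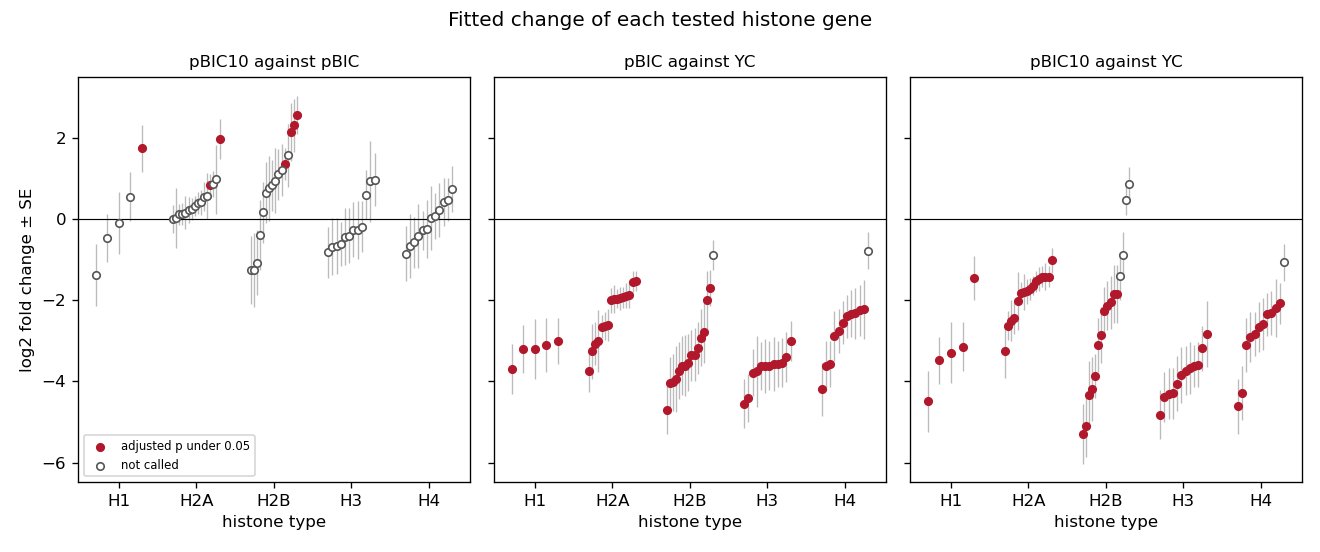
Log2 fold change with its SE (vertical axis) of each of the 61 tested histone genes, ordered by value within each type (horizontal axis), in the 3 comparisons; filled points have an adjusted p under 0.05 and open points are not called. Against YC nearly all points lie below 0 in both lymphoma groups, while between pBIC10 and pBIC they lie on both sides of 0 and the 7 filled points are all above it.

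H1 proteins bind the DNA between nucleosomes and compact the chromatin fibre. H1f2, the H1 gene with the most counts in every group, lay at 16.5, 21.8 and 13.4 CPM in pBIC10, 1.72, 3.62 and 10.1 CPM in pBIC, and 30.4, 81.0, 24.7 and 53.5 CPM in YC. No lymphoma library reached the lowest YC library. Against YC its log2 fold change was -1.46 ± 0.54 in pBIC10 (SE after the sign; adjusted p = 0.0397) and -3.20 ± 0.59 in pBIC (adjusted p = 8.77e-04), and in pBIC without replicate 3 it was -4.15. The call in pBIC10 was not kept without pBIC10 replicate 1 (adjusted p of 0.133), 2 (0.0811), 3 (0.152), YC replicate 2 (0.113) or 4 (0.0687), nor with no count filter (0.166) or in females alone (0.0803). H1f4 lay at 3.01, 3.10 and 2.05 CPM in pBIC10, 0.590, 1.75 and 3.21 CPM in pBIC, and 20.2, 47.9, 11 and 17.3 CPM in YC, with log2 fold changes against YC of -3.14 ± 0.59 in pBIC10 and -3.69 ± 0.61 in pBIC (adjusted p = 9.43e-04 and 4.08e-04). H1f3 lay at 2.01, 1.05 and 1.38 CPM in pBIC10, 0.161, 2.03 and 2.57 CPM in pBIC, and 12.3, 29.6, 6.72 and 9.77 CPM in YC, with -3.29 ± 0.75 in pBIC10 and -3.19 ± 0.74 in pBIC (adjusted p = 0.00319 and 0.00360). In both, all YC libraries lay above all lymphoma libraries. H1f1 and H1f5 were lower than in YC as well, with -3.48 ± 0.58 and -4.49 ± 0.75 in pBIC10 and -3.01 ± 0.56 and -3.10 ± 0.67 in pBIC. Per kb of the longest annotated transcript, H1f2 averaged 11 CPM in pBIC10, 3.30 in pBIC and 30.4 in YC, and H1f4 1.41, 0.959 and 12.5. H1f4 was the next after H1f2 in pBIC10 and YC, whereas in pBIC H1f1 and H1f5 lay above it, at 1.41 and 1.27.

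H2A and H2B pair into the dimers that flank the core of the nucleosome. H2ac23, the gene with the most counts of all 63, lay at 82.8, 90.7 and 122 CPM in pBIC10, 69.8, 97.3 and 70.0 CPM in pBIC, and 204, 351, 309 and 371 CPM in YC. It was lower than in YC, with log2 fold changes of -1.65 ± 0.23 in pBIC10 (adjusted p = 8.35e-05) and -1.97 ± 0.24 in pBIC (adjusted p = 2.60e-05), with no overlap of libraries. Per kb of its longest annotated transcript its mean was 205 CPM in pBIC10, 165 in pBIC and 643 in YC, and 6.50% of its 50-base stretches are its own. H2ac24 and H2ac22, the next H2A genes by counts, had 73.8 and 50.1 CPM per kb in pBIC10, 62.4 and 38.1 in pBIC and 242 and 145 in YC. The log2 fold change of H2ac24 against YC was -1.72 ± 0.27 in pBIC10 (adjusted p = 2.02e-04) and -1.96 ± 0.28 in pBIC (adjusted p = 8.62e-05). That of H2ac22 was -1.53 ± 0.26 in pBIC10 (adjusted p = 2.93e-04) and -1.93 ± 0.26 in pBIC (adjusted p = 6.36e-05). Over the 16 tested H2A genes the log2 fold change against YC lay between -3.25 and -1.02 in pBIC10 and between -3.75 and -1.53 in pBIC.

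H2ac18 and H2ac19 are neighbours on chromosome 3 with no 50-base stretch of their own, so reads cannot be split between them and their values are uncertain. H2ac18 lay at 3.77, 5.92 and 1.85 CPM in pBIC10, 0.643, 0.961 and 1.34 CPM in pBIC, and 10.8, 20.9, 8.28 and 13.5 CPM in YC. It had the largest fall of any H2A gene in pBIC (-3.75 ± 0.49 against YC, adjusted p = 5.08e-05) and a smaller one in pBIC10 (-1.80 ± 0.44, adjusted p = 0.00391). H2ac19 lay at 6.08, 8.90 and 7.95 CPM in pBIC10, 3.43, 5.03 and 4.50 CPM in pBIC, and 19.7, 37.4, 21.9 and 29.6 CPM in YC, with -1.83 ± 0.28 in pBIC10 (adjusted p = 1.44e-04) and -2.65 ± 0.29 in pBIC against YC (adjusted p = 1.35e-05). The 2 genes followed the same order of groups. H2ac15 lay at 2.54, 5.27 and 6.41 CPM in pBIC10, 3.27, 6.50 and 4.44 CPM in pBIC, and 25.0, 38.0, 25.0 and 29.4 CPM in YC. Its change against YC was -2.63 ± 0.35 in pBIC10 and -2.63 ± 0.35 in pBIC (adjusted p = 5.28e-05 and 5.24e-05), and the lymphoma groups overlapped. The call of H2ac11 in pBIC10 (-1.02 ± 0.30, adjusted p = 0.0124) was not kept without pBIC10 replicate 2 (adjusted p of 0.0635). The call of H2ac21 in pBIC10 (-2.03 ± 0.71, adjusted p = 0.0290) was not kept without pBIC10 replicate 2 (adjusted p of 0.111), 3 (0.103), YC replicate 1 (0.0670) or 2 (0.0664), nor in females alone (0.0662), and its value without pBIC10 replicate 1 was -3.36.

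H2B genes spread the widest, with log2 fold changes against YC from -5.29 to 0.86 in pBIC10 and from -4.70 to -0.88 in pBIC. At the low end, H2bc14 lay at 0.118, 0.0586 and 0 CPM in pBIC10, 0.107, 0.113 and 0.214 CPM in pBIC, and 2.37, 4.01, 2.19 and 1.5 CPM in YC. It was close to 0 in all lymphoma libraries, with 3 counts over the 3 pBIC10 libraries and 8 over the 3 pBIC libraries, against 133 in YC. Its change was called against YC in pBIC10 (adjusted p = 7.07e-05) and in pBIC (-4.04 ± 0.64, adjusted p = 2.00e-04). With so few counts its level in pBIC10 is given as a ratio of counts scaled to library size, 44.0-fold lower than in YC with an exact 95% counting interval of 14.7 to 216, and the fitted value moved by more than 1.5-fold without pBIC10 replicate 1 or 3. H2bc18, with no 50-base stretch of its own, lay at 0.767, 0.351 and 0.461 CPM in pBIC10, 0.107, 0.509 and 0.268 CPM in pBIC, and 6.08, 13.7, 6.08 and 5.35 CPM in YC, with -3.87 ± 0.55 in pBIC10 (adjusted p = 8.52e-05) and -4.70 ± 0.58 in pBIC (adjusted p = 3.34e-05), the lowest log2 fold change of the 61 genes there. H2bc3 and H2bc11 also lay below the type's median in both lymphomas, with -5.09 ± 0.77 and -4.33 ± 0.83 in pBIC10 and -4.02 ± 0.70 and -3.93 ± 0.81 in pBIC.

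At the other end of the H2B genes stood H2bc4, which like H2bc21 had a higher mean in pBIC10 than in YC. H2bc4 lay at 23.8, 35.6 and 16.8 CPM in pBIC10, 3.32, 1.87 and 7.71 CPM in pBIC, and 13.1, 18.5, 8.91 and 15.5 CPM in YC. The pBIC10 and YC libraries overlapped, and the pBIC libraries lay below both. Against YC its change was 0.86 ± 0.41 in pBIC10, which was not called (adjusted p = 0.0984), and -1.70 ± 0.45 in pBIC (adjusted p = 0.00667). H2bc21 lay at 5.54, 4.86 and 8.36 CPM in pBIC10, 1.77, 1.70 and 3.91 CPM in pBIC, and 5.41, 4.67, 4.32 and 3.78 CPM in YC, with no call against YC in pBIC10 (0.46 ± 0.36, adjusted p = 0.298) or pBIC. All of the 50-base stretches of H2bc21 are its own, and 69.4% of those of H2bc4. H2bc6 lay at 4.72, 6.15 and 2.67 CPM in pBIC10, 0.214, 0.791 and 1.71 CPM in pBIC, and 9.05, 13.8, 3.25 and 7.13 CPM in YC. H2bc9 lay at 1.18, 1.64 and 0.615 CPM in pBIC10, 0.0536, 0.170 and 0.536 CPM in pBIC, and 3.56, 4.59, 1.27 and 2.71 CPM in YC. For both genes pBIC10 overlapped YC and pBIC lay below all YC libraries. Both were lower than in YC in pBIC (-3.18 ± 0.65 and -3.54 ± 0.70, adjusted p = 0.00130 and 9.52e-04) and not called in pBIC10 (-0.88 ± 0.57 and -1.40 ± 0.59, adjusted p = 0.213 and 0.0636).

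H2bc23 and H2bc24, also among the H2B genes with the most counts, were called lower in both lymphomas. Of the 50-base stretches of H2bc23, 2.75% are its own, and H2bc24 matched no annotated transcript. Their values are thus uncertain as those of single genes. H2bc23 lay at 7.02, 7.20 and 3.49 CPM in pBIC10, 0.911, 2.20 and 5.14 CPM in pBIC, and 23.4, 51.7, 11.3 and 27.0 CPM in YC, with -2.26 ± 0.59 in pBIC10 and -3.36 ± 0.63 in pBIC (adjusted p = 0.00743 and 9.73e-04), the first of which was not kept when no count filter was used (0.0521). H2bc24 lay at 3.89, 2.93 and 2.26 CPM in pBIC10, 0.322, 0.904 and 2.68 CPM in pBIC, and 10.5, 23.8, 6.01 and 12.8 CPM in YC, with -2.13 ± 0.60 in pBIC10 and -3.34 ± 0.65 in pBIC (adjusted p = 0.0104 and 0.00103). In both genes all lymphoma libraries lay below all YC libraries. H2bc7, H2bc8 and H2bc22 were called lower in pBIC10, with -1.84 ± 0.71, -1.84 ± 0.71 and -2.05 ± 0.65 (adjusted p = 0.0442, 0.0456 and 0.0185). The call of H2bc7 was not kept without pBIC10 replicate 1 (adjusted p of 0.0536), 2 (0.0937), 3 (0.148), YC replicate 1 (0.0615), 2 (0.131) or 4 (0.0639), nor in females alone (0.113). The call of H2bc8 was not kept without pBIC10 replicate 1 (adjusted p of 0.141), 2 (0.101), 3 (0.0764), YC replicate 2 (0.129) or 4 (0.0861), nor in females alone (0.0576) or with sex as a covariate (0.0822), and that of H2bc22 without pBIC10 replicate 2 (adjusted p of 0.0653), 3 (0.0604) or YC replicate 2 (0.0575). In pBIC, the call of H2bc8 (-2.00 ± 0.72, adjusted p = 0.0318) was not kept without pBIC replicate 1 (adjusted p of 0.0986), 2 (0.115), YC replicate 2 (0.0902) or 4 (0.0629).

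H3 and H4 form the tetramer at the centre of the nucleosome. H3 genes had the largest median fall against YC in both lymphomas. H3c3 lay at 1.0, 0.703 and 0.820 CPM in pBIC10, 0.214, 1.07 and 1.61 CPM in pBIC, and 11, 20.0, 5.52 and 8.77 CPM in YC. Its log2 fold change against YC was -3.73 ± 0.61 in pBIC10 and -3.54 ± 0.60 in pBIC (adjusted p = 2.42e-04 and 3.25e-04), and both lymphoma groups lay below all YC libraries. H3c1 and H3c7, next by counts, were lower too, with -4.05 ± 0.69 and -4.39 ± 0.61 in pBIC10 and -3.62 ± 0.66 and -3.57 ± 0.57 in pBIC (adjusted p of at most 6.52e-04). H3c13 lay at 0.354, 0.234 and 0.154 CPM in pBIC10, 0.214, 0.396 and 0.375 CPM in pBIC, and 6.82, 12.5, 2.62 and 6.56 CPM in YC. Its changes of -4.82 ± 0.61 in pBIC10 and -4.41 ± 0.58 in pBIC (adjusted p = 3.57e-05 and 5.34e-05) are uncertain as values of 1 gene, since H3c13 and H3c14 have no 50-base stretch of their own. The mean of each H3 gene was at most 1.11 CPM in pBIC10 and at most 0.965 CPM in pBIC.

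Of the H4 genes, 11 of 12 were lower in each lymphoma. H4c17, the H4 gene with the most counts in YC, lay at 2.18, 2.34 and 1.08 CPM in pBIC10, 0.322, 1.19 and 1.82 CPM in pBIC, and 10.4, 23.4, 8.70 and 10.9 CPM in YC, with log2 fold changes against YC of -2.84 ± 0.54 in pBIC10 and -3.58 ± 0.57 in pBIC (adjusted p = 7.48e-04 and 2.03e-04). H4c8 lay at 2.18, 2.28 and 1.59 CPM in pBIC10, 0.643, 1.47 and 2.25 CPM in pBIC, and 7.86, 16.1, 4.46 and 5.92 CPM in YC, with -2.08 ± 0.51 in pBIC10 and -2.55 ± 0.52 in pBIC (adjusted p = 0.00393 and 0.00122). For H4c17, 10.2% of the 50-base stretches are its own, so its values are uncertain as those of 1 gene. In H4c17 and H4c8, no lymphoma library reached the YC range. The exception was H4c9, at 3.19, 3.16 and 5.43 CPM in pBIC10, 2.14, 3.62 and 8.62 CPM in pBIC, and 7.12, 13.1, 6.22 and 6.70 CPM in YC. Its pBIC replicate 3 lay inside the YC range, and its change was not called in pBIC10 (-1.07 ± 0.46, adjusted p = 0.0672) or in pBIC. The call of H4c6 (-2.20 ± 0.72 in pBIC10 and -2.23 ± 0.72 in pBIC) was not kept without pBIC10 replicate 2 (adjusted p of 0.0790) or YC replicate 2 (0.0573) in pBIC10 and without pBIC replicate 1 (adjusted p of 0.0565) or YC replicate 2 (0.0507) in pBIC.

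The comparison of pBIC10 with pBIC asked what loss of IL-10 changes in the lymphoma. Of the 61 histone genes, 7 were higher in pBIC10 and 0 lower, where 15.6% of all genes tested were called higher and 15.1% lower. The share of members called higher, 11.5%, was no larger than this background, and the count does not set the histone genes apart. At an unadjusted p under 0.05 the counts were 8 higher and 0 lower, with DESeq2 8 and 0, and with limma-voom 6 and 0. The median log2 fold change was 0.21, against -0.0071 over all genes, and by type it was -0.10 in H1, 0.36 in H2A, 0.89 in H2B, -0.34 in H3 and -0.12 in H4. There was no overlap of libraries in 9 genes, all higher in pBIC10, where of all tested genes 22.1% were higher and 19.7% lower without overlap. The 7 called genes were 4 H2B genes, 2 H2A genes and 1 H1 gene, and in H3 and H4 the count was 0 in either direction, also at an unadjusted p under 0.05 and with DESeq2 and limma-voom. Without pBIC replicate 3, H3c4 was called higher (adjusted p = 0.0132), as were H2bc22 (0.0316) and H2bc24 (0.0173), and without pBIC10 replicate 2, H2ac11 was (0.0244).

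H2bc4 was the clearest of the 7, with 2.56 ± 0.47 (adjusted p = 0.00158), and its lowest pBIC10 library, at 16.8 CPM, lay above its highest pBIC library, at 7.71 CPM. H2ac18 followed with 1.96 ± 0.49 (adjusted p = 0.00866), then H2bc6 with 2.30 ± 0.65 (adjusted p = 0.0180) and H2bc21 with 1.34 ± 0.39 (adjusted p = 0.0199). H2bc9 (2.13 ± 0.72, adjusted p = 0.0381), H1f2 (1.74 ± 0.58, adjusted p = 0.0414) and H2ac19 (0.82 ± 0.29, adjusted p = 0.0464) lay closer to the threshold. No alternative run could change how reads were split between H2ac18 and H2ac19, which have no 50-base stretch of their own. The calls of H2bc4 and H2ac18 held in every such run. That of H2bc6 was not kept without pBIC10 replicate 2 (adjusted p of 0.0625) or pBIC replicate 2 (0.0686). That of H2bc21 was not kept without pBIC10 replicate 3 (adjusted p of 0.0742), pBIC replicate 1 (0.0542) or 2 (0.0746), in females alone (0.102) and with sex as a covariate (0.0510). The call of H2bc9 was not kept without pBIC10 replicate 1 (adjusted p of 0.0766), 2 (0.130), pBIC replicate 1 (0.0991) or 2 (0.120), and that of H1f2 without pBIC10 replicate 1 (adjusted p of 0.105), 2 (0.145), 3 (0.0713), pBIC replicate 1 (0.0964) or 2 (0.172). The call of H2ac19 was not kept without pBIC10 replicate 2 (adjusted p of 0.146), 3 (0.0892), pBIC replicate 1 (0.114), 2 (0.0592) or 3 (0.0674), nor with upper quartile scaling (0.0507), limma-voom (0.0941), no count filter (0.0525), sex as a covariate (0.0558) or females alone (0.110). The call of H1f2 was not kept with no count filter (0.177), and fitting the 2 lymphoma groups alone lost those of H2bc21 (0.0641), H2bc9 (0.0677), H1f2 (0.0570) and H2ac19 (0.102). Without pBIC replicate 3 the log2 fold changes of H2bc4, H2bc6, H2bc9 and H1f2 grew to 3.29, 3.16, 3.28 and 2.70. The count of 7 fell to 4 without pBIC10 replicate 2 or 3, to 3 without pBIC replicate 1 and to 2 without pBIC replicate 2, and was 9 without pBIC replicate 3.

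**Figure D3:**
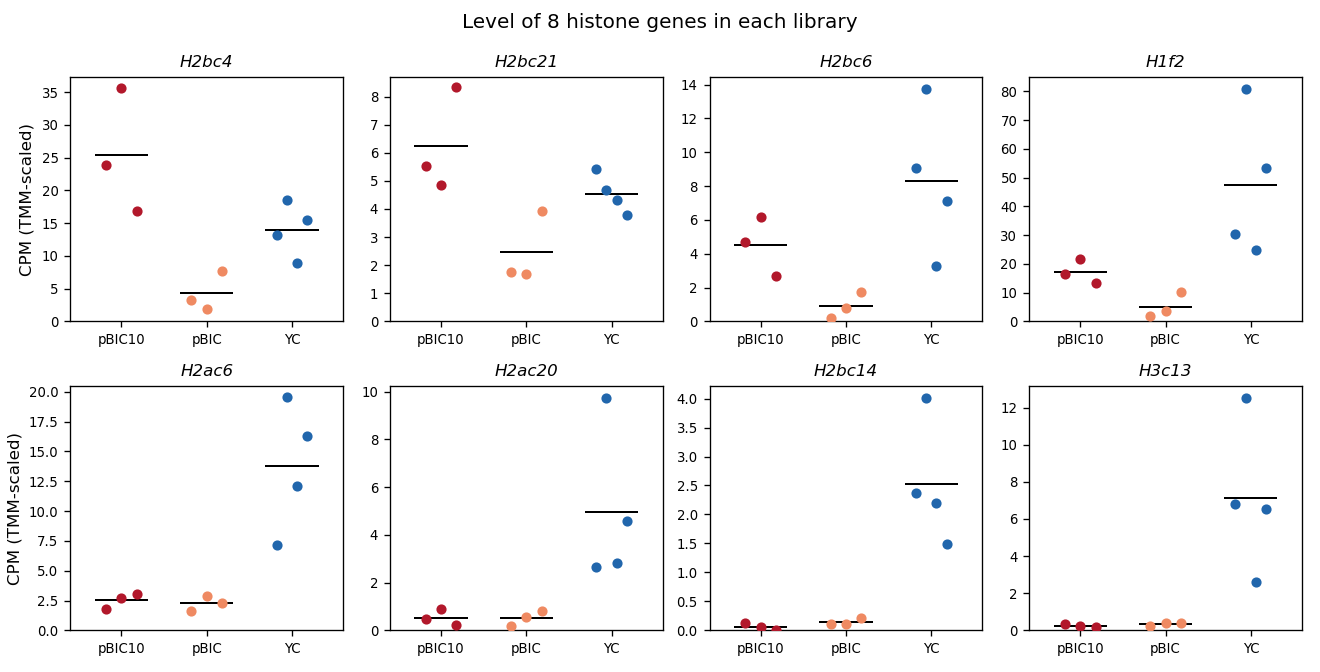
CPM of 8 histone genes (vertical axes, linear from 0) in each library of pBIC10, pBIC and YC; points are libraries and lines are group means. H2bc4 and H2bc21 in pBIC10 reach or pass the YC libraries, whereas their neighbours H2ac6 and H2ac20, and H2bc14 and H3c13, are low in all lymphoma libraries.

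Members with long annotated transcripts were described separately. Of the 60 tested members with a transcript model, 15 had a longest transcript of 1000 nt or more, and 5 of these 15 were higher in pBIC10 than in pBIC, against 2 of the 45 shorter ones, where 15.6% of all genes tested were called higher. Their median log2 fold change was 0.92, against 0.11 in the shorter ones. The 5 were H2bc4, H2bc6, H2bc9, H2bc21 and H1f2. Against YC the same split gave medians of -2.83 and -2.63 in pBIC10 and of -3.36 and -3.0 in pBIC. Red cell RNA also differed between the lymphoma libraries. The 10 erythroid markers, globins among them, summed to 1645, 1275 and 653 CPM in pBIC10 and to 34.6, 131 and 691 CPM in pBIC, with 0 of 10 called between the groups (edgeR; 5 higher at an unadjusted p under 0.05, 1 with DESeq2 and 5 with limma-voom), and none of the 10 was at 0 in any lymphoma library. In pBIC replicate 3, the pBIC library highest in erythroid markers, H2bc4, H2bc6, H2bc9, H2bc21 and H1f2 were also highest, as were 39 of all 61 histone genes. In pBIC10 replicate 3, the pBIC10 library lowest in these markers, H2bc4, H2bc6, H2bc9 and H1f2 were lowest, as were 27 of the 61, and H2bc21 was highest. The order of libraries did not match elsewhere. The pBIC10 library highest in these markers was replicate 1, but H2bc4, H2bc6, H2bc9 and H1f2 were highest in replicate 2. The pBIC library lowest in them was replicate 1, where H2bc6, H2bc9 and H1f2 were lowest, but H2bc4 and H2bc21 were lowest in replicate 2. The part of red cell RNA in these values was not tested.

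Most H2A and H2B genes lie head to head, and 11 such neighbouring pairs share a gap of 163 to 280 bases in which both promoters lie. In pBIC10 against pBIC, the genes of the 10 tested pairs were not always called alike. The difference within a pair was not tested. H2bc4 rose while its neighbour H2ac6, across a gap of 239 bases, lay at 1.83, 2.69 and 3.02 CPM in pBIC10 and 1.61, 2.88 and 2.30 CPM in pBIC (0.15 ± 0.40, adjusted p = 0.806). H2bc21 was called higher while H2ac20 lay at 0.472, 0.879 and 0.205 CPM in pBIC10 and 0.161, 0.565 and 0.803 CPM in pBIC (0.01 ± 0.74, adjusted p = 0.994). The call of H2bc21 was lost in 6 of 16 alternatives, and the value of H2ac20, with its low level, has a wide SE. Against YC both H2A neighbours fell, with -2.45 ± 0.39 for H2ac6 and -3.25 ± 0.68 for H2ac20 in pBIC10 and -2.60 ± 0.39 and -3.26 ± 0.67 in pBIC. Without pBIC10 replicate 2 the value of H2ac20 in pBIC10 was -3.85. Against YC the H2B gene had the lower fold change in 8 of the 10 pairs, in pBIC as in pBIC10, and the other 2 were those of H2bc4 and H2bc21. Among the 8, H2ac8 and H2bc8 were nearly equal in pBIC (-1.999 and -2.003). The median difference over the 10 pairs, H2B minus H2A on the log2 scale, was -0.92 in pBIC and -0.44 in pBIC10 against YC, and 0.51 in pBIC10 against pBIC.

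**Figure D4:**
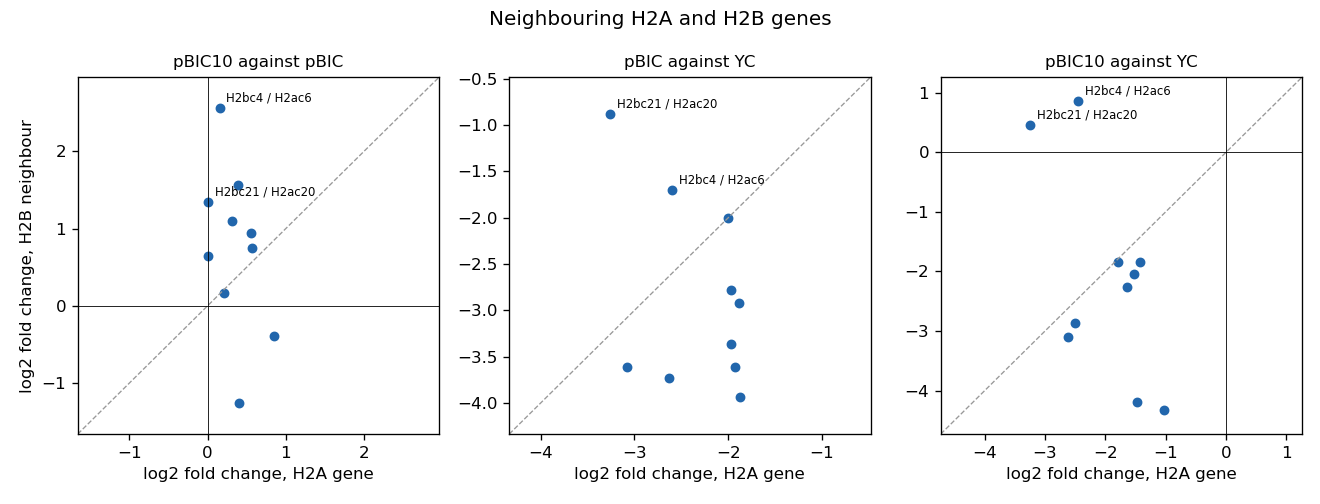
Log2 fold change of the H2B gene (vertical axis) against that of its H2A neighbour (horizontal axis) for the 10 tested head-to-head pairs in each comparison; the dashed line marks equal change. The pairs of H2bc4 with H2ac6 and H2bc21 with H2ac20 lie above the line in all 3 comparisons, and the other 8 pairs lie below it in both comparisons with YC.

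Promoters of the members were searched in RefSeq windows of 300 bases around the start (build GRCm38.p6), which held 57 of the 63 genes and lacked H2bc4, H2bc21, H2bc24, H3c1, H3c7 and H4c14. A gene with several windows, as H2bc6 has 2, was counted where any of them held the motif. The octamer ATTTGCAT, known as the site through which Oct-1 acts on H2B genes in S phase, stood on either strand in 6 of 17 H2A, 7 of 14 H2B and 0 of the 26 H1, H3 and H4 genes, and in 1.97% of all 27025 genes. A site in a shared gap was counted for both genes, as for H2ac8 with H2bc8, H2ac12 with H2bc12 and H2ac1 with H2bc1. CCAAT stood at 86.0% of the members, though at 3 of 11 H4 genes, and at 41.1% of all genes. TATAAA stood at 59.6% of the members and at 15.7% of all genes. The first of the following stretches fills most of the gap between H2ac6, which fell against YC, and H2bc4, which was not called in pBIC10. The second precedes H2bc14, with the lowest fitted fold change in pBIC10, and the third precedes H1f2, which rose in pBIC10 against pBIC. Each gives the 200 bases before the annotated start, on the strand of the named gene, with CCAAT, the octamer and TATAAA of either strand in capitals.
H2ac6, chr13:23683960-23684159, minus strand: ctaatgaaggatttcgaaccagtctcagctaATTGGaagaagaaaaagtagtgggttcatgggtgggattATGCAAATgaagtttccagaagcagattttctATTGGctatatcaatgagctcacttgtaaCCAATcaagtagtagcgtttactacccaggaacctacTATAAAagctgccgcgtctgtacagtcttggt
H2bc14, chr13:21721844-21722043, plus strand: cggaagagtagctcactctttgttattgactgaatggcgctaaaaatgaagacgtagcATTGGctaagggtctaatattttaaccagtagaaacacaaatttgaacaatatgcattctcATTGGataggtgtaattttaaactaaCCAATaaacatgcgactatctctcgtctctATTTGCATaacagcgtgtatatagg
H1f2, chr13:23738607-23738806, plus strand: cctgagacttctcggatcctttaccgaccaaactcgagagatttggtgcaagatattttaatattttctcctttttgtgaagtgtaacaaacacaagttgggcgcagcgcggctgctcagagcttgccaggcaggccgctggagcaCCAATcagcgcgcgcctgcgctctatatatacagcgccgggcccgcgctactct
Next to H2ac6 the octamer began 130 bases and TATAAA 32 bases before the start, with 3 CCAAT motifs between 169 and 69 bases before it. Before H2bc14 the octamer began at 25 bases, and before H1f2 there was CCAAT at 54 bases and no octamer. None of these letters overlap each other, and they describe the sequence without telling which gene of a pair a motif serves.

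Variant histones, which are mostly not tied to S phase, were called in both directions. Of the 11 looked at, 9 were tested. H2ax was listed at 0 in every library and Macroh2a2 was too low to test. Against YC, 3 were lower and 2 higher in pBIC10, and 5 were lower and 1 higher in pBIC, with medians of -0.18 and -0.56. In pBIC10 these shares, 33.3% lower and 22.2% higher, lay near the 26.9% and 24.8% of all genes tested, and in pBIC 55.6% were lower and 11.1% higher, against 27.7% and 26.4% of all genes. H3f3b, one of the 2 genes of H3.3, was lower in both (-0.71 ± 0.18 and -0.78 ± 0.18, adjusted p = 0.00572 and 0.00317), while H3f3a, the other, was higher in pBIC10 (0.53 ± 0.18, adjusted p = 0.0228) and lower in pBIC (-0.56 ± 0.18, adjusted p = 0.0179) and differed between the lymphomas by 1.09 ± 0.19 (adjusted p = 9.34e-04). The call of H3f3a was lost in pBIC10 without pBIC10 replicate 2 (adjusted p of 0.0752), YC replicate 2 (0.0728), 3 (0.0532) or 4 (0.0505), and in females alone (0.0898), and in pBIC without pBIC replicate 1 (adjusted p of 0.0509). H2aj, an H2A variant, was higher in both lymphomas (0.92 ± 0.26 and 1.38 ± 0.26, adjusted p = 0.00985 and 7.74e-04), the first of which was not kept in females alone (0.0583).

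The widest change among variants was in H1f10, the gene of the linker histone H1.10, at 25.3, 22.7 and 4.56 CPM in pBIC10, 0.482, 0.452 and 2.57 CPM in pBIC, and 80.0, 73.6, 83.8 and 70.1 CPM in YC. No libraries overlapped between any 2 groups, and pBIC10 replicate 3 lay far below the other pBIC10 libraries. It was lower than in YC in pBIC10 (-2.13 ± 0.57, adjusted p = 0.00833, or 0.0639 with no count filter) and in pBIC (-6.02 ± 0.73, adjusted p = 4.88e-05), and higher in pBIC10 than in pBIC (3.89 ± 0.69, adjusted p = 0.00145). Its log2 fold change was 5.21 in pBIC10 against pBIC without pBIC replicate 3 and -7.33 in pBIC against YC without pBIC replicate 3. Cenpa, the centromeric H3, was lower in pBIC10 than in YC (-0.90 ± 0.25, adjusted p = 0.00873) and than in pBIC (-0.98 ± 0.26, adjusted p = 0.0136), the second of which was not kept without pBIC10 replicate 2 (adjusted p of 0.0684). H2az2, one of the H2A.Z genes, was lower in pBIC than in YC (-1.06 ± 0.22, adjusted p = 0.00124), whereas H2az1, the other, was called in no comparison (adjusted p of 0.191 to 0.611). Between the lymphomas, H2az1 was called lower with sex as a covariate (adjusted p = 0.0339), in females alone (0.0413) and without pBIC10 replicate 3 (0.0440). H2az2 was called higher there in 8 alternatives, with an adjusted p of 0.0327 in DESeq2, 0.0386 with scaling by library size alone, 0.0434 with RLE, 0.0445 with a filter at 1 CPM, 0.0488 with no filter, 0.0478 with sex as a covariate, and 0.0452 and 0.0499 without pBIC10 replicate 3 or pBIC replicate 3. Leaving out a library also called H1f0 higher (without pBIC replicate 3, adjusted p = 0.00580) and H2aj lower (without pBIC replicate 1, 0.0378). Without YC replicate 2, H2az2 was also called lower in pBIC10 than in YC (0.0495). H1f0, a linker histone of resting cells, was lower in pBIC than in YC (-0.71 ± 0.25, adjusted p = 0.0298), a call not kept without pBIC replicate 1 (adjusted p of 0.105), 2 (0.141), YC replicate 1 (0.0526) or 4 (0.0730). Macroh2a1 was called in no comparison (adjusted p of 0.119 to 0.714).

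The factors that make and process histone messages were called in both directions, with medians nearer 0 than those of the histone genes. Of 19 such genes, 8 were higher and 3 lower in pBIC10 than in YC, 6 higher and 5 lower in pBIC than in YC, and 4 higher and 2 lower in pBIC10 than in pBIC, with medians of 0.24, 0.082 and 0.16. Against YC the shares were 42.1% higher and 15.8% lower in pBIC10, and 31.6% higher and 26.3% lower in pBIC. Of all genes, 24.8% and 26.4% were higher there and 26.9% and 27.7% lower. Between the lymphomas 21.1% of the 19 were higher and 10.5% lower, against 15.6% and 15.1% of all genes. Slbp, the stem-loop binding protein, lay at 60.9, 56.6 and 107 CPM in pBIC10, 55.4, 86.1 and 53.0 CPM in pBIC, and 134, 85.3, 128 and 107 CPM in YC. It was lower in pBIC than in YC (-0.81 ± 0.26, adjusted p = 0.0183), a call not kept without pBIC replicate 1 (adjusted p of 0.0647) or 3 (0.0681), and was not called in pBIC10 (-0.60 ± 0.26, adjusted p = 0.0670), though it was in 7 of 17 alternatives, among them without pBIC10 replicate 3 (adjusted p = 0.00819) or YC replicate 2 (0.0416). Npat was called in no comparison, with log2 fold changes of -0.20 ± 0.21 between the lymphomas, 0.08 ± 0.20 in pBIC and -0.11 ± 0.20 in pBIC10 against YC (adjusted p = 0.520, 0.745 and 0.659). Casp8ap2, known as FLASH, which works with the U7 particle, was higher in pBIC10 than in YC (0.61 ± 0.24, adjusted p = 0.0481), a call lost in 14 of 17 alternatives, among them without pBIC10 replicate 1 (adjusted p of 0.0660), 3 (0.216), YC replicate 1 (0.125), 2 (0.0960), 3 (0.0539) or 4 (0.108). Lsm11, a protein of the U7 particle, was higher in both lymphomas (0.59 ± 0.20 and 0.95 ± 0.20, adjusted p = 0.0280 and 0.00167), the first of which was not kept without pBIC10 replicate 1 (adjusted p of 0.0642), 3 (0.0905), YC replicate 3 (0.0755) or 4 (0.0798), nor with no count filter (0.0627) or in females alone (0.178). Also higher in both was Cstf2 (1.27 ± 0.13 and 0.75 ± 0.13, adjusted p = 8.78e-06 and 4.42e-04), which takes part in the cleavage of messages that receive a tail.

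Among the other processing genes, Cpsf2 was higher in pBIC10 than in pBIC (1.16 ± 0.22, adjusted p = 0.00135) and Cpsf3, which encodes the nuclease that cuts the message, was lower (-0.70 ± 0.15, adjusted p = 0.00410). Zfp473, which encodes a zinc finger protein of the U7 machinery, was lower in pBIC10 than in pBIC (-1.69 ± 0.53, adjusted p = 0.0279) and than in YC (-2.07 ± 0.51, adjusted p = 0.00458), and the first call was not kept without pBIC10 replicate 1 (adjusted p of 0.0947), 2 (0.105), pBIC replicate 1 (0.0728) or 2 (0.0878), nor with limma-voom (0.0646), sex as a covariate (0.0607) or the 2 groups alone (0.0576). Tut7, a uridyl transferase that marks histone messages for decay, was lower in both lymphomas than in YC (-0.77 ± 0.23 and -0.93 ± 0.24, adjusted p = 0.0145 and 0.00494), and the call in pBIC10 was not kept without pBIC10 replicate 3 (adjusted p of 0.0706) or in females alone (0.0890). Eri1, the nuclease that trims the stem-loop, was higher in both lymphomas (0.58 ± 0.20 and 0.51 ± 0.20, adjusted p = 0.0245 and 0.0427). Its call in pBIC10 was not kept without pBIC10 replicate 3 (adjusted p of 0.113), YC replicate 2 (0.0702), 3 (0.0509) or 4 (0.0738), nor in females alone (0.164). Its call in pBIC was lost in 11 of 17 alternatives, among them DESeq2 (adjusted p of 0.0682), limma-voom (0.0549), RLE scaling (0.0617), females alone (0.0617), the 2 groups alone (0.0520), a filter at 1 CPM (0.0514), and the fits without pBIC replicate 1 (0.0544), 2 (0.141), YC replicate 2 (0.121), 3 (0.0807) or 4 (0.117).

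Histone chaperones, which carry histones to the DNA, were called in both directions. Of 22, 7 were higher and 7 lower in pBIC10 than in YC, 3 higher and 8 lower in pBIC than in YC, and 4 higher and 1 lower in pBIC10 than in pBIC. The shares against YC in pBIC10, 31.8% in each direction, lay near the 24.8% higher and 26.9% lower of all genes tested. Those in pBIC were 13.6% higher and 36.4% lower, against 26.4% and 27.7% of all genes. Between the lymphomas 18.2% of the 22 were higher and 4.55% lower, against 15.6% and 15.1% of all genes. Tonsl, which reads new H4 on copied DNA, was lower in both lymphomas (-1.78 ± 0.18 and -2.03 ± 0.18, adjusted p = 7.42e-06 and 3.47e-06), as was Hjurp, the chaperone of CENP-A (-1.24 ± 0.17 and -1.66 ± 0.17, adjusted p = 5.81e-05 and 8.49e-06). Ubn1, of the HIRA complex that loads H3.3, was lower in both as well (-1.19 ± 0.16 and -0.93 ± 0.16, adjusted p = 6.10e-05 and 3.60e-04). Rbbp7, a histone-binding subunit of several complexes, was higher in both (0.78 ± 0.18 and 0.95 ± 0.18, adjusted p = 0.00277 and 7.10e-04). Dnajc9, a chaperone of H3 and H4, was higher in pBIC10 than in YC (0.83 ± 0.19, adjusted p = 0.00290) and than in pBIC (1.03 ± 0.21, adjusted p = 0.00242).

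Genes of DNA replication, which like histone genes are highest in S phase but have tails, differed less from YC than histone genes in their medians. Of 36 such genes, 3 were higher and 7 lower in pBIC10 than in YC, and 4 higher and 13 lower in pBIC than in YC, with medians of -0.12 and -0.36, against -2.63 and -3.10 for the histone genes. The shares were 8.33% higher and 19.4% lower in pBIC10, where of all genes tested 24.8% were higher and 26.9% lower. In pBIC 11.1% were higher and 36.1% lower, against 26.4% and 27.7% of all genes. The replication genes summed to 4569 to 5979 CPM in pBIC10, 3313 to 5045 CPM in pBIC and 4388 to 6225 CPM in YC. All 3 groups overlapped. Pold1, a DNA polymerase subunit, was lower in both lymphomas (-1.36 ± 0.17 and -1.88 ± 0.18, adjusted p = 3.57e-05 and 4.28e-06), and Gins4, of the replicative helicase, was higher (0.88 ± 0.19 and 0.93 ± 0.19, adjusted p = 0.00198 and 0.00138). Mcm6, another helicase subunit, was higher in pBIC10 than in YC (0.95 ± 0.21, adjusted p = 0.00227) and than in pBIC (0.99 ± 0.23, adjusted p = 0.00560). Between the lymphomas 8 (22.2%) were higher and 2 (5.56%) lower in pBIC10, where 15.6% of all genes were higher and 15.1% lower. Among the 8 were E2f2 and E2f1, factors that drive entry into S phase (1.74 ± 0.22 and 1.14 ± 0.20, adjusted p = 9.64e-05 and 8.75e-04). Of 22 genes of G2 and mitosis, 17 were lower and 0 higher in pBIC10 than in YC (edgeR; 0 higher also at an unadjusted p under 0.05 and with DESeq2 and limma-voom). In pBIC against YC, 3 were lower and 1 higher. In pBIC10 against pBIC 13 were lower and 0 higher (0 higher also at an unadjusted p under 0.05 and with DESeq2 and limma-voom). The shares lower were 77.3% in pBIC10 and 13.6% in pBIC (4.55% higher) against YC, and 59.1% between the lymphomas. Of all genes tested, 26.9%, 27.7% and 15.1% were lower in the same order, and 24.8%, 26.4% and 15.6% higher. Plk1, a kinase of mitosis, lay at 16.8, 13.6 and 26.1 CPM in pBIC10, 91.3, 91.5 and 61.6 CPM in pBIC, and 102, 81.4, 89.1 and 95.9 CPM in YC, with all pBIC10 libraries below all others (-2.28 ± 0.24 against YC and -2.11 ± 0.25 against pBIC, adjusted p = 8.64e-06 and 4.35e-05).

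**Figure D5:**
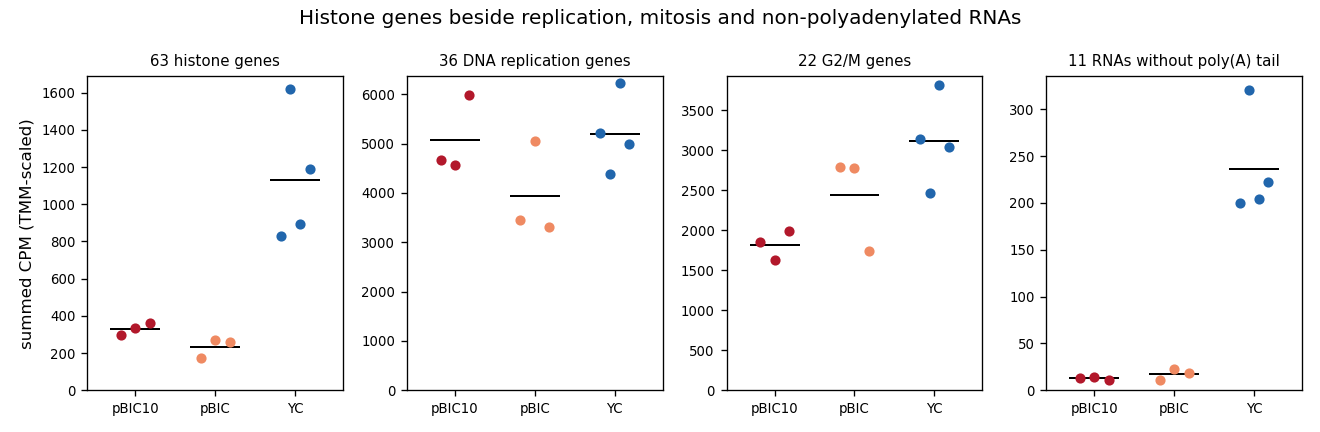
Summed CPM (vertical axes, linear from 0) of the histone genes, of DNA replication genes, of G2 and mitosis genes and of RNAs without a poly(A) tail (Malat1 and Neat1 left out) in each library of pBIC10, pBIC and YC; points are libraries and lines are group means. The histone genes and the RNAs without a tail are low in every lymphoma library, while the replication genes overlap between all 3 groups.

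Against YC, RNAs that are known to lack a poly(A) tail mostly changed in the same direction as the histone genes. Of 13 looked at, 10 were tested, and 8 were lower and 0 higher in pBIC10 than in YC, and 7 lower and 0 higher in pBIC than in YC, with medians of -3.07 and -3.01 (edgeR; 0 higher also at an unadjusted p under 0.05 and with DESeq2 and limma-voom). Of all genes tested, 26.9% were lower and 24.8% higher in pBIC10, and 27.7% and 26.4% in pBIC. Of the 10 tested RNAs, 80% and 70% were lower. Without Malat1 and Neat1 these RNAs summed to 12.7, 14.7 and 11.2 CPM in pBIC10 and to 10.8, 22.3 and 18.7 CPM in pBIC. In YC they summed to 199.7, 320.0, 204 and 222 CPM, with YC replicate 2 again highest. Rn7sk, the 7SK RNA that restrains transcription elongation, lay at 0.531, 0.644 and 0.564 CPM in pBIC10, 0.965, 0.509 and 0.910 CPM in pBIC, and 46.5, 71.2, 55.5 and 88.7 CPM in YC, with -6.80 ± 0.34 in pBIC10 and -6.35 ± 0.33 in pBIC against YC (adjusted p = 6.81e-08 and 6.64e-08). Rmrp, the RNA of RNase MRP, had -5.47 ± 0.38 in pBIC10 and -4.23 ± 0.35 in pBIC, and Rpph1, the RNA of RNase P, -3.0 ± 0.40 and -4.04 ± 0.42 (adjusted p of at most 6.49e-05). Between pBIC10 and pBIC, 3 (30%) were lower and 1 (10%) higher, where 15.1% of all genes tested were lower and 15.6% higher. Of the RNAs called, Rn7s1, of the signal recognition particle, was lower (-2.77 ± 0.59, adjusted p = 0.00408). It kept its call when any 1 library was left out. The calls of Rnu7, which was the higher RNA, and of Rn7s2 and Rmrp were not kept in several alternatives. Without pBIC10 replicate 1 their adjusted p was 0.158, 0.0998 and 0.0554. The median of the tested RNAs here was -0.36, against 0.21 for the histone genes, of which 7 were higher and 0 lower. The part that carry-over of RNA without a tail has in the histone values was not tested.

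Markers of other cells also moved with the comparisons with YC. Of all genes tested, 26.9% were lower and 24.8% higher in pBIC10 than in YC, and 27.7% and 26.4% in pBIC. The 10 T cell markers summed to 10.6 to 11.6 CPM in pBIC10, 42.1 to 82.3 in pBIC and 135 to 408 in YC, and 10 of 10 were lower in pBIC10 and 9 of 10 in pBIC. The 8 plasma cell markers, Prdm1 among them, summed to 415 to 464, 616 to 1053 and 1535 to 3222 CPM in the same 3 groups, with 7 of 8 lower in each lymphoma. The 10 myeloid markers summed to 27.4 to 37.7, 127 to 167 and 142 to 209 CPM, with 9 lower in pBIC10 and 6 lower and 1 higher in pBIC. The 10 erythroid markers summed to 653 to 1645 CPM in pBIC10, 34.6 to 691 CPM in pBIC and 185 to 558 CPM in YC, with 3 of 10 higher in pBIC10 and a median log2 fold change of 1.73 there. In pBIC 0 of the 10 were called (edgeR; 0 also at an unadjusted p under 0.05 and with DESeq2 and limma-voom). No T cell marker was at 0 in any library. The part of these cells in the histone values was not tested.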

How the data were processed

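RNA-seq gene counts were deposited by the authors as 1 table of raw read counts over 10 libraries. Per the labels' protocols, RNA of sorted cells was enriched with oligo(dT) and sequenced as single reads of 50 bases. Per the submitters' processing notes FastQC and featureCounts were used with build GRCm39, with the aligner, strand setting and treatment of multiply matching reads not given in the sources used here. Each of the 10 columns belonged to 1 sample. 

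Genes passing edgeR's filterByExpr (17718 of 46316) were scaled by TMM and fitted with 1 coefficient per group over all 10 libraries, with the quasi-likelihood test of edgeR 4.0.16 in R 4.3.3 and Benjamini-Hochberg adjustment over all tested genes. SEs were approximated as the absolute log2 fold change over the root of F. A gene is called at an adjusted p under 0.05. Alternatives were RLE, upper quartile and library-size scaling, DESeq2 1.42.0, limma-voom (limma 3.58.1), 2 other filters, a sex covariate, females alone, the 2 compared groups alone and leaving out each library. The scripts were tested on simulated data. Coordinates are those of RefSeq promoter windows in GRCm38.p6, a build other than that of the counts.

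Genes described in full were the 3 members of each type with the highest mean CPM, in each comparison the 4 called members per direction that had the lowest adjusted p, the tested variant histones, Slbp, Npat, Casp8ap2 and Eri1, and up to 3 called genes per direction of other lists; further members were chosen after their values were seen. The members and lists were chosen with earlier results of these data known.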

Additional observations from a re-analysis of the deposited data

Results flagged for a closer look

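Among 139 groups of 4 YC libraries examined, 10 had 1 library apart from the other 3 by Dixon's criterion, and chance alone would mark about 1 in 20. The groups of 3 are too small for it. The number given is the gap to the nearest library divided by the range of the group. YC replicate 2 stood above the others in 6 histone genes: H2bc18 (0.912; 13.7 CPM against 5.35 to 6.08), H4c12 (0.894), H4c17 (0.85; 23.4 CPM against 8.70 to 10.9), H2bc12 (0.832), H4c9 (0.87; 13.1 CPM against 6.22 to 7.12) and H4c4 (0.876; 16.7 CPM against 4.39 to 5.92). YC replicate 1 was low in the variant H2aj (0.875; 52.5 CPM against 59.3 to 60.3). YC replicate 3 was high in the mitotic gene Cenpe (0.886; 193 CPM against 134 to 141) and in the sum of the 19 genes of histone message processing (0.849; 2458 CPM against 1990 to 2060). YC replicate 4 was high in the sum of the erythroid markers (0.839; 558 CPM against 185 to 245).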

How the results depend on the processing

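Of 122 called changes of histone genes, 107 held in every alternative run and 0 reversed. They were 2 of 7 in pBIC10 against pBIC (H2bc4 and H2ac18), 48 of 56 in pBIC10 against YC and 57 of 59 in pBIC against YC. No run could change how reads were split between H2ac18 and H2ac19. The 7 genes higher in pBIC10 than in pBIC became 3 when these 2 groups were fitted alone and 2 to 9 when single libraries were left out, and the cause was not tested. In pBIC10 against YC, 1 gene was called higher in place of 0 when the 2 groups were fitted alone. Leaving out single libraries gave 49 to 57 lower genes in pBIC10 against YC and 57 to 61 in pBIC against YC, where the median lay between -3.75 and -2.71. Without the member with the most counts, H2ac23, the mean sum was 232 CPM in pBIC10, 156 CPM in pBIC and 824 CPM in YC. With it the sums were 331, 235 and 1133 CPM. RLE, upper quartile and library-size scaling moved the median of all genes by less than 0.1 on the log2 scale. No paired analysis was run, since each library comes from 1 mouse and the labels state no pairing between groups. The labels give no replicate numbers, and those used here follow the order of the samples. Most lymphoma values lie near or under 1 CPM, where depth limits single genes.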
